A study of Drosophila melanogaster with 8 samples.

Results

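The proteasome subunit genes of Drosophila were taken by name from a deposited table of 13982 genes, as every gene whose name starts with Rpn or Rpt and a digit, or with Prosalpha or Prosbeta. There were 42 of them. The 32 main members encode the subunits of the common proteasome, 14 of the 20S core, 10 of the base of the 19S regulatory particle and 8 of its lid. The other 10 are restricted paralogs, copies of a main gene whose names carry a T or an R after the number. All 32 main members and 3 of the 10 restricted paralogs (Rpt3R, Rpt4R and Rpt6R) had enough reads to be tested, 35 genes in all.

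RNA was measured in whole heads of flies 2 days old, in 4 libraries of ND-75KD flies (genotype nSybGal4/ND-75 RNAi) and 4 libraries of Control flies (genotype nSybGal4/w[1118]), each from 20 heads, 10 male and 10 female. ND-75 encodes a subunit of respiratory complex I, and the comparison asks how its loss in neurons changes transcripts in the head. All flies carried the driver nSybGal4, which is active in neurons, so a head library also holds cells that the driver does not reach. The Control flies lacked the RNAi line, which the study describes as lowering ND-75 to some extent without a driver. The study's text also gives both groups Tub-Gal80ts, a repressor of Gal4 that the sample labels do not name. The series calls the libraries biological replicates without saying how many crosses they came from, so the errors and p values below describe pools of heads.

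The proteasome degrades proteins that carry chains of ubiquitin. Its 20S core is a barrel of outer rings of alpha subunits and inner rings of beta subunits, with the active sites on Prosbeta1, Prosbeta2 and Prosbeta5. The 19S particle sits on the end of the barrel, where its lid and base receive the substrate, remove the ubiquitin and unfold the chain with a ring of Rpt ATPases. Cells make the subunits in matched amounts, and in flies the transcription factor cnc, a relative of mammalian Nrf1 and Nrf2, can raise their genes together. Restricted paralogs of many subunits are known in flies from the testis.

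Library totals lay between 17448199 and 24071517 counts for ND-75KD and between 21758154 and 24680283 for Control. The main members took 0.901 to 1.01% of these counts in ND-75KD libraries and 0.332 to 0.728% in Control libraries. Levels below are counts scaled to library size (CPM) with the TMM method of edgeR, and fold changes are log2 of ND-75KD over Control with a standard error (SE) from edgeR's quasi-likelihood test. A gene was called at an adjusted p under 0.05, over 9986 tested genes. ND-75 itself stood at 315.6, 313.4, 281.9 and 312.1 CPM in ND-75KD libraries, against 578.5, 561.7, 679.6 and 683.9 CPM in Control libraries (log2 fold change −1.03, SE 0.11, adjusted p = 0.000148), which goes with the labels. Control replicate 2 stood apart by a mitochondrial ribosomal RNA, mt:lrRNA, at 23.9% of its counts, against 4.58 to 9.0% in the other libraries. Control replicate 4 stood apart by the proteasome genes themselves, as described next.

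The main members were close to constant in ND-75KD heads and moved together in Control heads. Their summed level was 8228, 7863, 8981 and 8326 CPM in ND-75KD replicates 1 to 4, against 5549.8, 8391, 7754 and 3262 CPM in Control replicates 1 to 4 (mean 8349 ± 466 and 6239 ± 2328; SD, n = 4 each). Control replicates 4, 1 and 3 lay below every ND-75KD library and Control replicate 2 within their range, so the groups overlapped by that library. The place of Control replicate 2 depends on its scaling. Its TMM factor was 0.651, against 0.940 to 1.02 in the other Control libraries. As a share of all counts, mt:lrRNA included, its main members took 0.546%, against 0.549% in Control replicate 1. By that share the groups did not overlap. The deposited FPKM, summed, put it at 6561, again the highest Control library. Their library totals lie near the TMM-scaled ones, so they do not give a separate view of its place. Counts per length, scaled to the same sum in every library with mt:lrRNA included (TPM), placed it lower. Their median over the main members was 232, 177, 292 and 144 TPM in Control replicates 1 to 4. In ND-75KD libraries it was 395 to 454 TPM, again without overlap. Each of the 32 main members had its lowest TMM-scaled Control level in replicate 4 and its next lowest in replicate 1. This order was found in 14.2% of tested genes. Control replicate 4 alone was below the other Control libraries in 32 of 32 main members, against 27.8% of tested genes. Its level was 0.350 to 0.559 of the median of the other Control libraries (median 0.433), and all 32 were at or below 0.6 of it, a limit set after the values were seen that 6.45% of tested genes met.

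The spread between replicates therefore differed between the groups. The median SD of log2(CPM + 0.5) over the 32 main members was 0.08 in ND-75KD and 0.61 in Control libraries, against 0.12 and 0.23 over all tested genes. The SD was greater in Control for 32 of 32 main members and for 78.8% of tested genes. Control replicate 4 was below every ND-75KD library for 32 main members, against 35.2% of tested genes, and Control replicate 1 for 31, with Prosalpha1 as the exception, against 35.4%. Control replicate 2 was above every ND-75KD library for 12 of the 32, of which 9 encode core subunits, a count near the 41.4% of tested genes. Control replicate 3 was above for 6 of the 32, all in the core, a smaller part than the 38.6% of tested genes. For 17 main members, 4 core, 9 base and 4 lid, Control replicate 3 was below every ND-75KD library, against 36.7% of tested genes. The mt:lrRNA share of counts was 6.15, 23.9, 9.0 and 5.36% in Control replicates 1 to 4, the same order as their summed levels. In ND-75KD replicates 1 to 4 it was 5.43, 4.58, 6.05 and 7.40%, which is not the order of their summed levels. What set the order of the Control libraries was not tested.

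**Figure D1:**
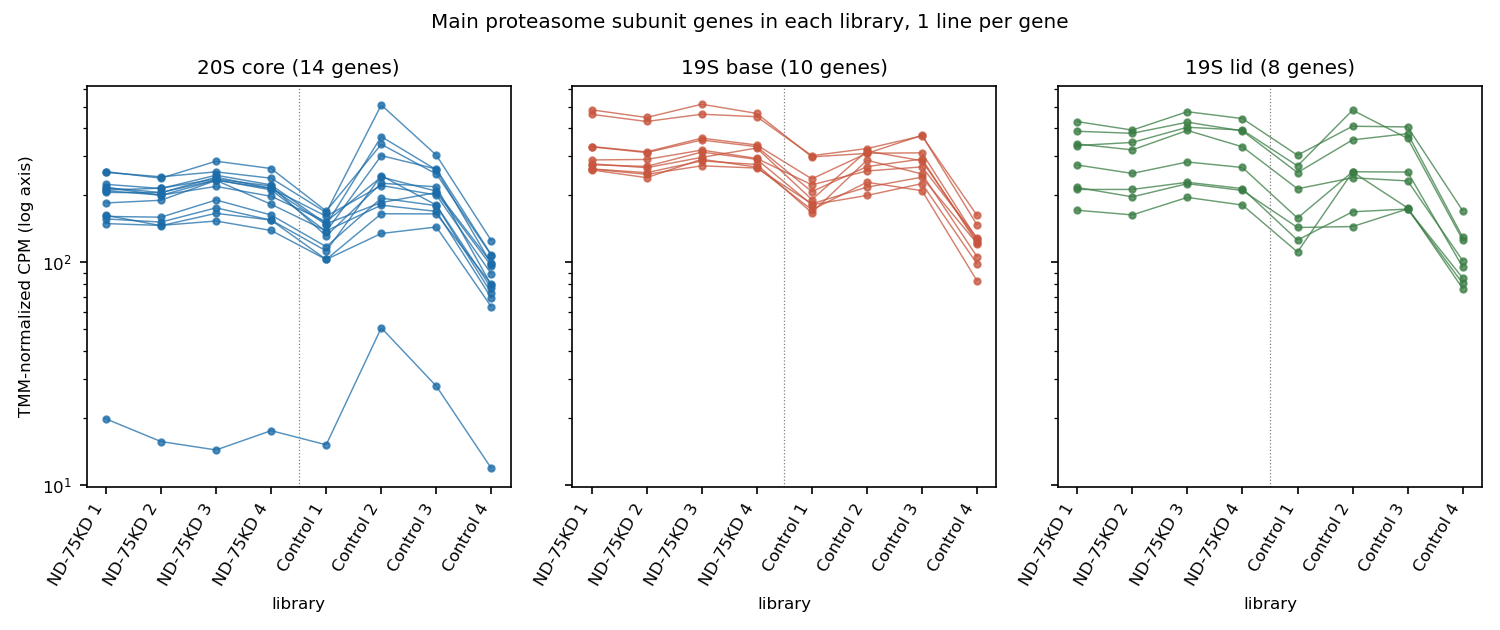
Level of each main proteasome gene (TMM-scaled CPM, log axis) in the 4 ND-75KD and then the 4 Control libraries, with 1 line per gene and 1 panel for the 14 core, 10 base and 8 lid genes. The lines are nearly flat over the ND-75KD libraries, and in the Control libraries every line is lowest in replicate 4 and next lowest in replicate 1; the line far below the others is Prosalpha1.

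Between the groups, 6 of the 35 tested proteasome genes rose in ND-75KD heads, a part near the 14.3% of tested genes, and 1 fell, against 18.9%. The count of 6 alone is not read as an excess. The 6 were the base genes Rpn1, Rpn2 and Rpt4 and the lid genes Rpn5, Rpn7 and Rpn8, so that 3 of 10 base genes, 3 of 8 lid genes and 0 of 14 core genes rose by edgeR. At an unadjusted p under 0.05, 7 base, 3 lid and 2 core genes were higher, against 19.9% of tested genes, and 0 main members lower, against 24.7%. DESeq2 called 6 base, 3 lid and 2 core genes higher, against 17.2% of tested genes with that tool. The median log2 fold change was 0.52 over the base, 0.50 over the lid and 0.25 over the core, against −0.01 over all tested genes, and 29 of 32 main members had a positive value. Every ND-75KD library lay above every Control library for 15 of 32 main members, 8 base, 4 lid and 3 core, against 17.2% of tested genes, and every ND-75KD library lay below for 0, against 19% of tested genes.

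These counts moved with single libraries. Without Control replicate 4, edgeR called 5 base, 3 lid and 0 core genes higher, the first 6 among them (15.1% of all tested genes were higher in that fit), and the median log2 fold changes were 0.33, 0.27 and 0.04. With Control replicates 1 and 3 as the only controls, a choice made after the data were seen, the counts were again 5, 3 and 0 (13.5% of tested genes). Without Control replicate 2 or 3 the number of higher members was 10, beside 15.7% and 11.6% of tested genes. It was 2 without ND-75KD replicate 1 or 2, 1 without ND-75KD replicate 4 and 0 without ND-75KD replicate 3. The share of all tested genes called higher was also smaller in these 4 fits, at 10.6% without replicate 1, 9.45% without replicate 2, 9.19% without replicate 3 and 10.1% without replicate 4. The edgeR test fits 1 dispersion per gene to both groups, so its SE and p pool the unequal spreads given above. For Rpn2 the SE was 0.21 with all libraries and 0.11 without Control replicate 4. Its log2 fold change was 0.64 with all libraries and 0.63 to 0.66 without any 1 ND-75KD library. No member passed a test against a fold of 1.2, which 6.97% of tested genes passed as higher.

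**Figure D2:**
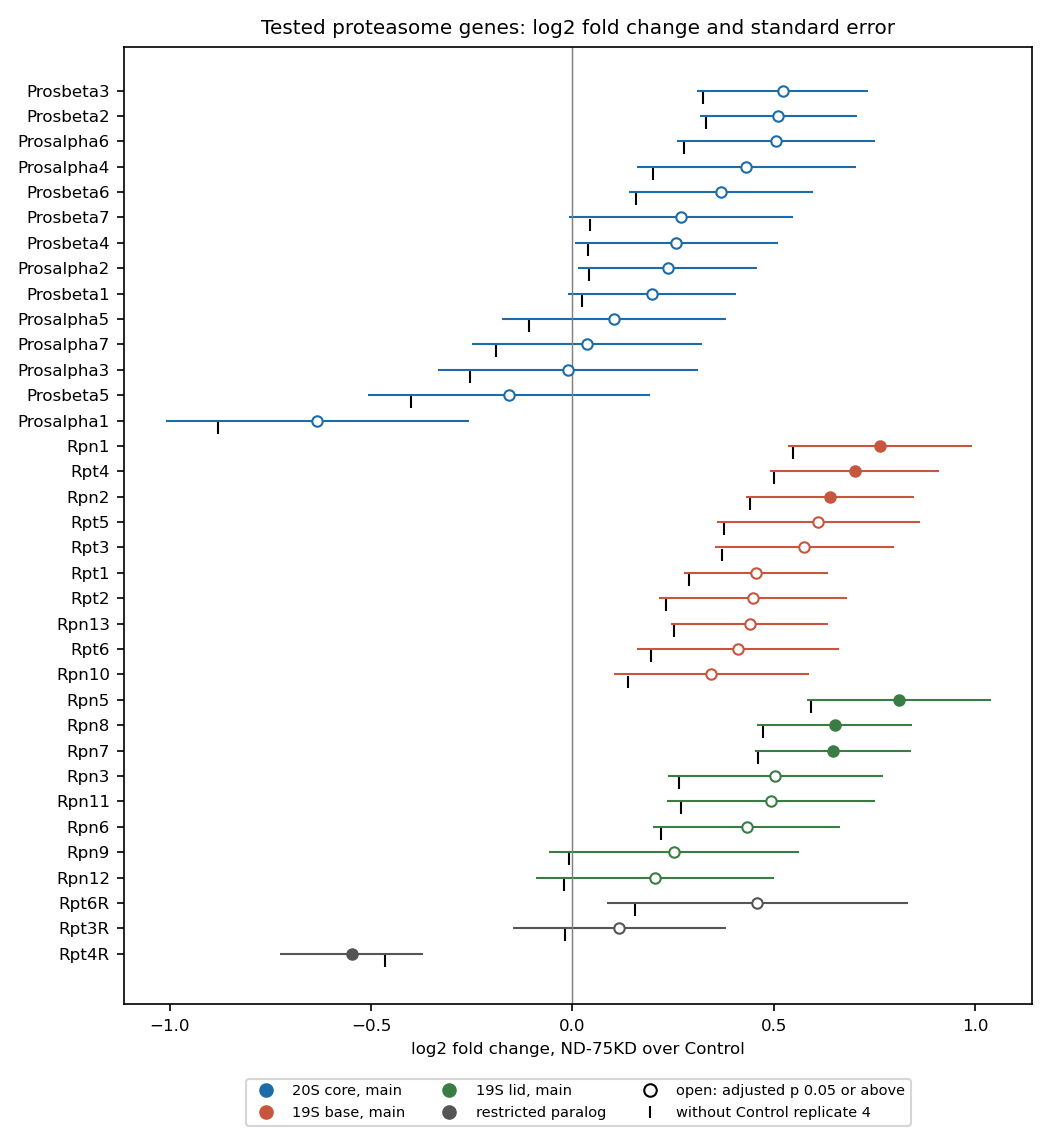
Log2 fold change (ND-75KD over Control, x axis) with its SE for the 35 tested proteasome genes, by subcomplex, with filled circles for called genes. Black ticks give the value without Control replicate 4, which was lower for all 32 main members; the filled circles are 3 base genes, 3 lid genes and Rpt4R.

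Of the 3 subcomplexes, the 19S base had the narrowest range of log2 fold changes, between 0.35 and 0.76. Rpn1 (FBgn0028695; chromosome arm 3L, 19915051 to 19918160, plus strand in the BDGP6 coordinates of the table), a scaffold that docks ubiquitin receptors and shuttle proteins, was at 484, 447, 513 and 466 CPM in ND-75KD libraries, against 298, 309, 372 and 147 CPM in Control libraries. The groups did not overlap (log2 fold change 0.76, SE 0.23, adjusted p = 0.0269). It was called without any 1 Control library (0.55 without replicate 4) and lost its call without any 1 ND-75KD library (0.73 to 0.79). Rpn2 (FBgn0028692; chromosome arm 3R, 29153524 to 29157255, plus strand), the other large scaffold of the base, was at 462, 429, 463 and 451 CPM in ND-75KD libraries, against 301, 324, 369.6 and 163 CPM in Control libraries. These groups did not overlap either, with Control replicate 4 far below the other 3 (log2 fold change 0.64, SE 0.21, adjusted p = 0.037). Its call, too, was lost without any 1 ND-75KD library (0.63 to 0.66).

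Among the ATPases of the base, Rpt4 rose. Rpt4 (FBgn0028685; chromosome arm X, 6289470 to 6291245, minus strand) was at 274, 269.7, 313 and 290.0 CPM in ND-75KD libraries, against 182, 199.8, 226 and 98.5 CPM in Control libraries. All ND-75KD libraries exceeded all Control libraries (log2 fold change 0.70, SE 0.21, adjusted p = 0.027), and the call was lost without ND-75KD replicate 2 (0.73), 3 (0.66) or 4 (0.70). Of its exon bases 6.35% are shared with a gene on the opposite strand, whose reads cannot be told apart without a stated strand setting. Of the other ATPase genes, Rpt3 (0.58, adjusted p = 0.0684) and Rpt5 (0.61, adjusted p = 0.0854) missed the threshold with groups that did not overlap. Both passed it without Control replicate 4 (0.37 and 0.38) or without Control replicate 2 (0.68 and 0.77), and Rpt3 also without Control replicate 3 (0.77). Rpt1 (0.46, adjusted p = 0.0729), which passed without Control replicate 3 (0.62), and Rpt2 (0.45, adjusted p = 0.161) also had groups apart. For Rpt6 (0.41, adjusted p = 0.227) the groups overlapped, with ND-75KD libraries at 253 to 286 CPM and Control replicate 2 at 288 CPM. The ubiquitin receptor genes Rpn13 (0.44, adjusted p = 0.105) and Rpn10 (0.35, adjusted p = 0.292) were not called.

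In the lid, which holds subunits with PCI domains and a pair with MPN domains, Rpn5 had the largest log2 fold change of the 35 tested proteasome genes. Rpn5 (FBgn0028690; chromosome arm 3R, 5789493 to 5791569, plus strand), a PCI subunit, was at 340.1, 320.0, 391 and 330.3 CPM in ND-75KD libraries, against 214, 239.8, 232 and 102 CPM in Control libraries. Even the highest Control library was below the lowest ND-75KD library (log2 fold change 0.81, SE 0.23, adjusted p = 0.0208), and among the libraries left out in turn only the loss of ND-75KD replicate 3 ended the call (0.75). Rpn7 (FBgn0028688; chromosome arm 3R, 22460662 to 22462054, minus strand), another PCI subunit, was at 217, 197, 226 and 210.3 CPM in ND-75KD libraries, against 143, 145, 174 and 80.5 CPM in Control libraries. The groups were apart (log2 fold change 0.65, SE 0.19, adjusted p = 0.0265), and the call was lost without ND-75KD replicate 1 (0.64), 3 (0.62) or 4 (0.65). Rpn7 shares 6.32% of its exon bases with a gene on the opposite strand.

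Rpn8 (FBgn0002787; chromosome arm 2R) encodes the MPN subunit that pairs with the deubiquitinase Rpn11. It was at 213, 213, 229 and 215 CPM in ND-75KD libraries, against 126, 169, 174 and 85.1 CPM in Control libraries. Its ND-75KD values were nearly identical except for replicate 3, and its groups did not overlap (log2 fold change 0.65, SE 0.19, adjusted p = 0.0256). The call was lost without any 1 ND-75KD library (0.62 to 0.66). Rpn11, which removes ubiquitin from the substrate, was at 274, 251, 282 and 267 CPM in ND-75KD libraries, against 158, 255, 254 and 95.3 CPM in Control libraries. Control replicates 2 and 3 lay inside the ND-75KD range and the gene was not called (log2 fold change 0.49, adjusted p = 0.164). The remaining PCI genes Rpn3 (0.50), Rpn6 (0.43), Rpn9 (0.25) and Rpn12 (0.21) were not called, with adjusted p between 0.167 and 0.615. Rpn9 shares 15.7% of its exon bases with genes on the opposite strand. Without Control replicate 4, Rpn9 and Rpn12 stood at −0.01 and −0.02.

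The core genes covered a wider range, between −0.63 and 0.52. Of the catalytic subunit genes, Prosbeta2, with the trypsin-like site, was at 224, 215, 246 and 223 CPM in ND-75KD libraries, against 149, 186, 206 and 96.4 CPM in Control libraries. Its groups did not overlap, but it missed the threshold (log2 fold change 0.51, SE 0.20, adjusted p = 0.0669), which it passed without Control replicate 2 (0.60) or 3 (0.70) and with DESeq2 (0.52). Prosbeta5, with the chymotrypsin-like site, was at 253, 242, 255 and 239 CPM in ND-75KD libraries, against 168, 509, 303 and 125 CPM in Control libraries. The ND-75KD values lay between Control replicates 1 and 4 on one side and 2 and 3 on the other (log2 fold change −0.16, SE 0.35, adjusted p = 0.752), and the value was 0.32 without Control replicate 2 and −0.40 without Control replicate 4. Prosbeta1, with the caspase-like site, was at 149, 147, 153 and 139 CPM in ND-75KD libraries, against 103, 165, 165 and 79.7 CPM in Control libraries. It was not called either (log2 fold change 0.20, adjusted p = 0.485). None of the catalytic genes was called by edgeR. Prosbeta2 and Prosbeta5 share 7.93 and 7.11% of their exon bases with a gene on the opposite strand.

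Of the structural beta ring genes, Prosbeta3 had groups that did not overlap (log2 fold change 0.52, adjusted p = 0.0819). It too passed the threshold without Control replicate 2 (0.63) or 3 (0.71). Prosbeta6 (0.37), Prosbeta7 (0.27) and Prosbeta4 (0.26) were not called. In the alpha ring, whose subunits gate the entry to the barrel, Prosalpha6 (0.50, adjusted p = 0.136) was the only gene with groups apart. Prosalpha4 (0.43), Prosalpha2 (0.24), Prosalpha5 (0.10), Prosalpha7 (0.04) and Prosalpha3 (−0.01) were not called, with adjusted p between 0.24 and 0.983. Prosalpha3 shows the pattern behind these small values, with 217, 200.0, 234 and 215 CPM in ND-75KD libraries, against 148, 367, 260.4 and 98.3 CPM in Control libraries. The mean was close to equal in the groups while the Control libraries spread widely on both sides.

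Prosalpha1 had the lowest log2 fold change of the main members and was uncertain. It was at 19.9, 15.7, 14.4 and 17.6 CPM in ND-75KD libraries, against 15.2, 50.9, 27.8 and 11.9 CPM in Control libraries (log2 fold change −0.63, SE 0.38, adjusted p = 0.215). The groups overlapped, and the value was −0.11 without Control replicate 2. Its level per length was 18.3 ± 2.55 FPKM in ND-75KD and 28.1 ± 18.6 FPKM in Control libraries (SD, n = 4 each), far below every other main member. A tandem copy, CG30382, lies 1734 bases away on the same strand of chromosome arm 2R and is named Prosalpha1R in the reference annotation used here; it was looked at after the values were seen. Reads that match both copies may be split or left out by the counting, and how they were treated is not given in the sources used here. The copy stood at 11.3 ± 0.757 CPM in ND-75KD and 11.2 ± 3.83 CPM in Control libraries, and the sum of both at 28.2 ± 2.58 CPM in ND-75KD and 37.7 ± 19.9 CPM in Control libraries (SD, n = 4 each).

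Summed over the subcomplexes, the base stood at 3233, 3068, 3467 and 3302 CPM in ND-75KD libraries, against 2163, 2719, 2824 and 1221 CPM in Control libraries. The lid stood at 2366, 2262, 2629 and 2427 CPM in ND-75KD libraries, against 1579.9, 2309, 2154 and 865 CPM in Control libraries. The core stood at 2629, 2533, 2886 and 2597 CPM in ND-75KD libraries, against 1807, 3363, 2777 and 1176 CPM in Control libraries. The groups were apart for the base only. For the lid Control replicate 2, and for the core Control replicates 2 and 3, reached the ND-75KD range or exceeded it.

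The balance between 19S and 20S transcripts did separate the groups. The sum of base and lid over the sum of the core was 2.13, 2.1, 2.11 and 2.21 in ND-75KD libraries, against 2.07, 1.5, 1.79 and 1.77 in Control libraries (mean 2.14 ± 0.0463 and 1.78 ± 0.235; SD, n = 4 each). Control replicate 2 had the lowest ratio and Control replicate 1 nearly reached the ND-75KD range. The ratio differed between Control replicates 1 and 4 although both had low sums, so it did not follow the summed level. With the deposited FPKM, which count a gene per length, it was 1.25, 1.24, 1.24 and 1.30 in ND-75KD libraries, against 1.21, 0.915, 1.07 and 1.05 in Control libraries. As a ratio of sums over chosen members it was given no p value.

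**Figure D3:**
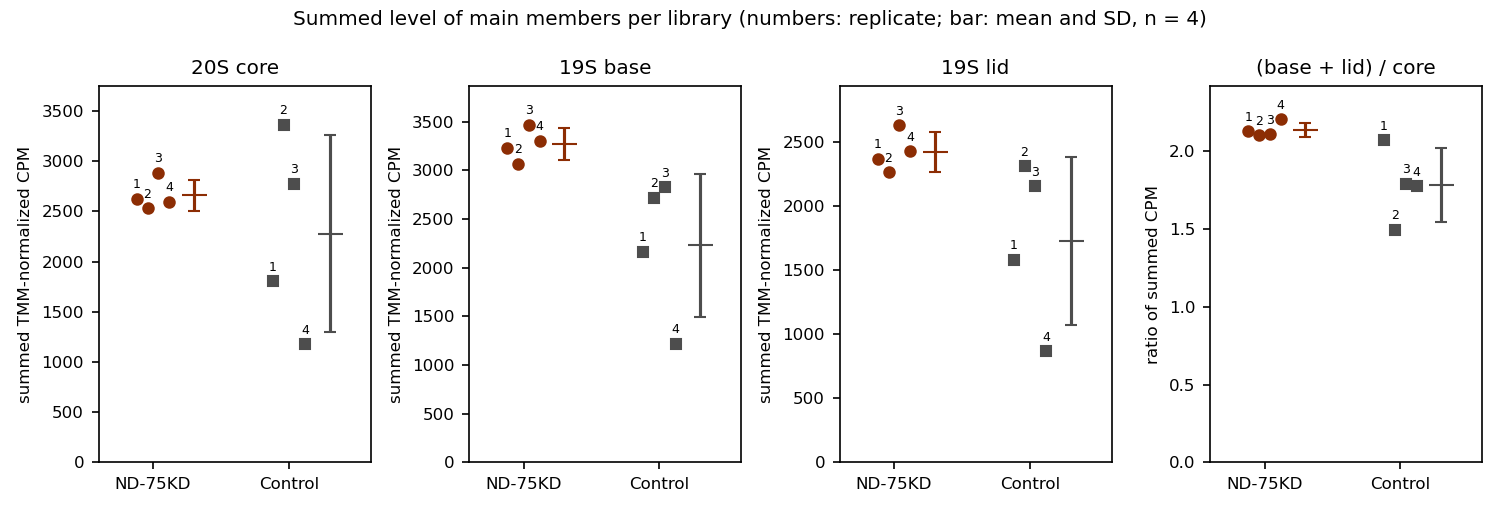
Summed TMM-scaled CPM of the main core, base and lid genes, and the ratio of base plus lid to core, in each ND-75KD library (circles, left) and Control library (squares, right), with replicate numbers above the points and the mean with its SD (n = 4) beside them. The core and lid sums overlap between the groups, whereas the base sums and the ratio do not.

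Single genes also took different shares of the main members' summed CPM. Rpn1, Rpt3, Rpt4 and Rpn5 took a higher share in every ND-75KD library than in any Control library, and Prosalpha1, Prosalpha2, Prosalpha3 and Prosalpha7 a lower one. The share of Rpn5 was 4.13, 4.07, 4.36 and 3.97% in ND-75KD libraries, against 3.86, 2.86, 2.99 and 3.12% in Control libraries. The share of Rpt3 was 4.01, 3.96, 3.94 and 3.97% in ND-75KD libraries, against 3.75, 3.21, 3.75 and 3.74% in Control libraries. The share of Prosalpha2 was 2.55, 2.55, 2.44 and 2.38% in ND-75KD libraries, against 2.75, 2.88, 2.69 and 3.05% in Control libraries. The shares of the other 24 main members overlapped between the groups. By CPM, every ND-75KD library lay above every Control library for 17.2% of tested genes and below for 19%. Such a part was not worked out for shares. The genes with a lower share are core genes of 920 to 976 bases, and the shares were not corrected for gene length.

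Gene length moved with these differences. The core genes are short, with a median of 971 bases (815 to 1215), the base genes had a median of 1589 bases (1404 to 3412) and the lid genes 1605.5 bases (995 to 1945), against 2096 bases over all tested genes. Spearman's rho between log2 fold change and length was 0.60 across the 32 main members and 0.35 across the 9986 tested genes, which share their libraries and are not independent replicates. The median log2 fold change of tested genes up to 1000 bases long was −0.34, and that of genes over 2000 bases was 0.11. With the trend on length removed in each library, 20 proteasome genes were called higher, against 15.4% of tested genes, and 0 lower, against 19.8%. Of the 20, 8 were core, 8 base and 4 lid genes, and 5 of the first 6 remained, without Rpn2 (0.55, adjusted p = 0.0682 by edgeR). The medians were then 0.49 for the core, 0.62 for the base and 0.67 for the lid. Core genes called in that setting included Prosbeta2 (0.72), Prosbeta3 (0.75) and Prosbeta1 (0.44). The ratio of base plus lid to core with the trend divided out was 2.08, 2.05, 2.04 and 2.14 in ND-75KD libraries, against 1.97, 1.76, 1.87 and 1.69 in Control libraries, still without overlap. The absence of core genes among the calls thus depended on the setting, of which the treatment of length was only a part. Core genes called higher were 2 with DESeq2, 2 with the replicate number as a block and 2 without Control replicate 2 or 3. The cause of the trend on length was not tested.

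**Figure D4:**
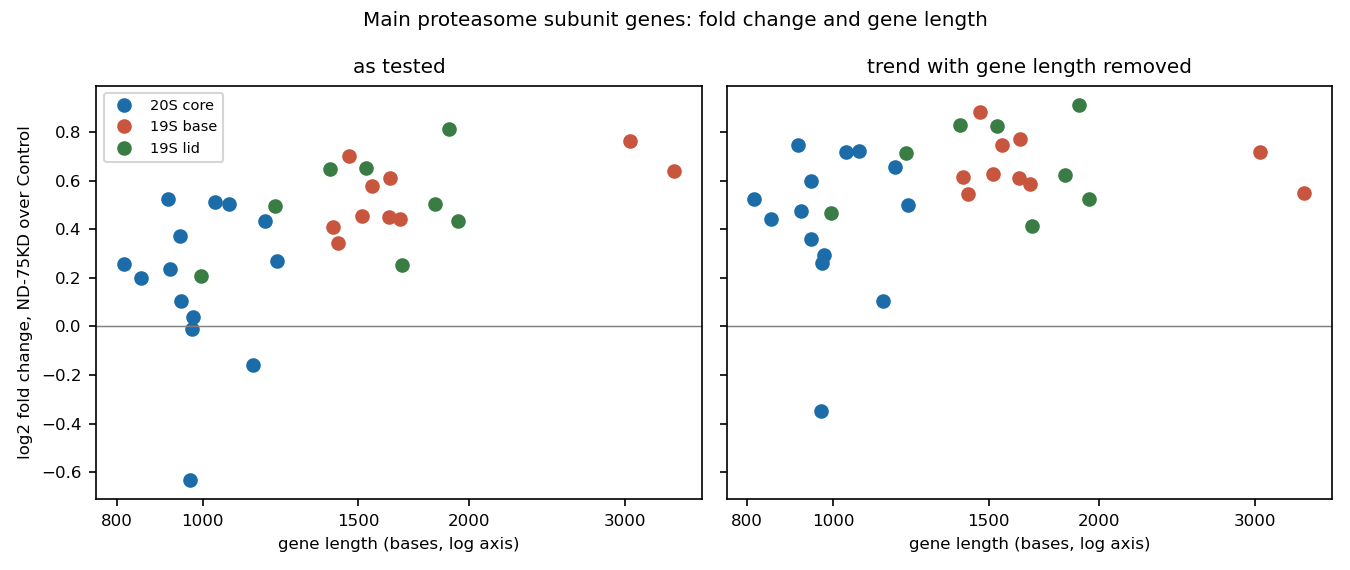
Log2 fold change (ND-75KD over Control) of the 32 main members against gene length (bases, log axis), as tested (left) and with the trend on length removed in each library (right). The core genes lie at the short end, and their median is 0.25 as tested and 0.49 with the trend removed.

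Compared per length, the main members lay close together. Leaving out Prosalpha1, the highest main gene was 1.69 to 1.89 times the lowest in the 4 ND-75KD libraries and 2.08 to 4.70 times in the 4 Control libraries, and the coefficient of variation over genes was 14.2 to 15.2% and 17.1 to 39.2%. In ND-75KD the order began with Prosbeta6 (242 ± 19.7 FPKM), Prosalpha5 (242 ± 14.5 FPKM) and Prosalpha2 (237 ± 11.6 FPKM; SD, n = 4 each), neighbours within their spread. It ended, before Prosalpha1, with Rpn7 (161 ± 9.61 FPKM), Rpn8 (149 ± 5.92 FPKM) and Rpn2 (139 ± 5.14 FPKM). In Control libraries the order began with Prosbeta5 (249.7 ± 154 FPKM), Prosalpha3 (231 ± 125 FPKM) and Prosalpha5 (221 ± 101 FPKM; SD, n = 4 each), whose spread exceeded the gaps between them. It ended, before Prosalpha1, with Rpn1 (95.6 ± 32 FPKM), Rpn8 (93.2 ± 27.3 FPKM) and Rpn2 (87.7 ± 26.7 FPKM).

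The restricted paralogs were rare transcripts in heads. Rpt6R, the copy of the ATPase gene Rpt6, was the most abundant, at 11.9 ± 1.13 FPKM in ND-75KD and 8.6 ± 4.93 FPKM in Control libraries, against 202 ± 11.5 and 149 ± 58.9 FPKM for Rpt6 (SD, n = 4 each). It was at 15.4, 15.1, 18.4 and 16.6 CPM in ND-75KD libraries, against 8.68, 18.4, 17.4 and 3.84 CPM in Control libraries, the Control order of the main members in replicates 4 and 1. It made up 5.58 ± 0.217% of the FPKM of Rpt6 and Rpt6R in ND-75KD and 5.09 ± 1.30% in Control libraries (SD, n = 4 each), and it was not called (log2 fold change 0.46, SE 0.37, adjusted p = 0.366).

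Rpt4R, the copy of Rpt4, fell in the test on counts while Rpt4 rose. Rpt4R (FBgn0036224; chromosome arm 3L, 11941912 to 11943485, plus strand) was at 3.77, 3.15, 4.76 and 3.21 CPM in ND-75KD libraries, against 5.04, 5.65, 4.77 and 6.35 CPM in Control libraries. The highest ND-75KD and the lowest Control value nearly met, in replicate 3 of each group, and in the deposited FPKM they crossed (3.35 FPKM in ND-75KD and 3.26 FPKM in Control). Control replicate 4, lowest for every main member, was the highest for Rpt4R. Its log2 fold change was −0.55 (SE 0.18, adjusted p = 0.0367). The values rest on 340 reads in the ND-75KD and 462 reads in the Control libraries. The call was lost without Control replicate 1 (−0.55), 3 (−0.58) or 4 (−0.46), without ND-75KD replicate 1 (−0.55), 2 (−0.48) or 4 (−0.48), and with the length trend removed (−0.40, adjusted p = 0.117 by edgeR). Rpt4R made up 1.25 ± 0.181% of the FPKM of Rpt4 and Rpt4R in ND-75KD and 3.31 ± 1.76% in Control libraries (SD, n = 4 each), a share that moves with both genes.

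Rpt3R was at 0.943, 0.7, 0.835 and 1.07 CPM in ND-75KD libraries, against 0.86, 0.918, 0.936 and 0.607 CPM in Control libraries, and was not called (log2 fold change 0.12, adjusted p = 0.757). The 7 restricted core genes were too low to be tested, each with at most 44 reads over the 4 libraries of a group. Of these Prosalpha4T1 had 44 reads in ND-75KD and 31 in Control libraries, Prosbeta2R1 had 42 and 43, Prosbeta2R2 had 29 and 44, and Prosalpha6T had 16 and 14. Prosalpha3T had 1 and 5 reads, Prosalpha4T2 had 2 and 5, and Prosbeta5R1 had 2 and 2. A library with 0 reads of a gene allows up to 3 reads, or 0.111 to 0.212 CPM, by counting error alone. Of 8 testis markers 6 were in the table and none could be tested, with summed levels of 0.148 to 0.501 CPM in ND-75KD and 0.202 to 0.848 CPM in Control libraries. Reads that a copy shares with its main gene may be assigned to either, so these levels are uncertain at the low end.

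**Figure D5:**
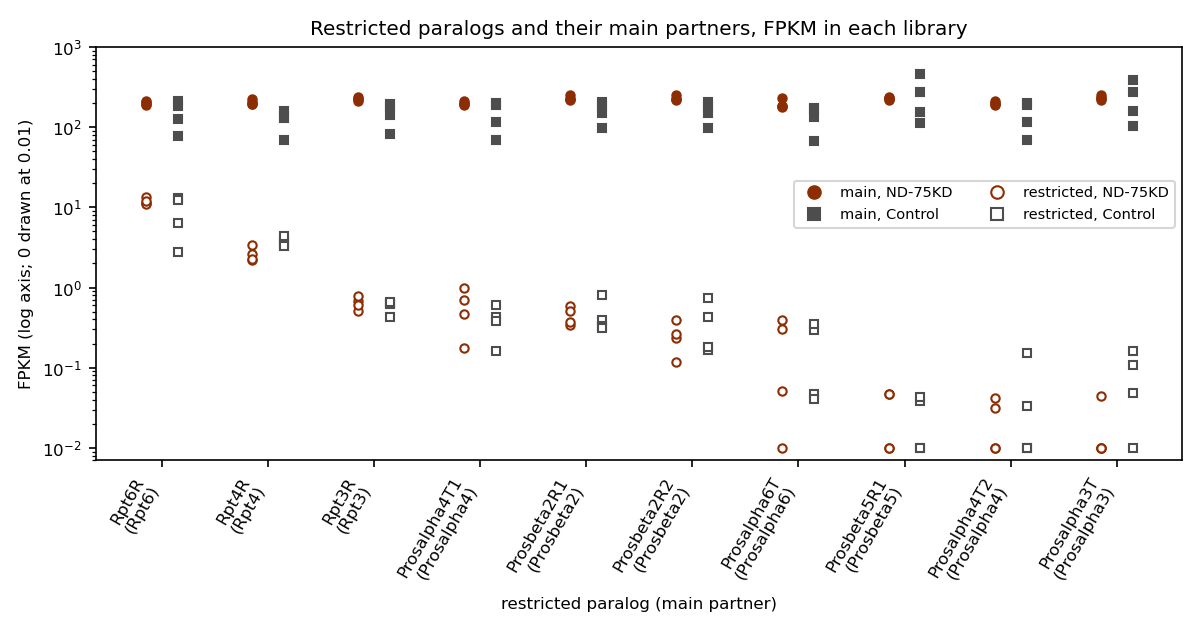
FPKM (log axis; values of 0 drawn at 0.01) of the 10 restricted paralogs (open) and their main partners (filled) in each ND-75KD library (circles) and, to their right, each Control library (squares). Rpt6R is the highest copy at 11.9 FPKM on average in ND-75KD; for Rpt4R the highest ND-75KD library, at 3.35 FPKM, lies just above the lowest Control library, at 3.26 FPKM.

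Among 7 genes for proteasome assembly and regulation, 1 was higher and 0 were lower, with a median log2 fold change of 0.21. A count of 1 in 7 equals the share of all tested genes called higher, 14.3%, and nothing is read from it. Uch-L5, a deubiquitinase that binds the base through Rpn13, rose to 101, 96.3, 113 and 95.5 CPM in ND-75KD libraries, against 42.3, 84.1, 69 and 24.3 CPM in Control libraries. The groups did not overlap (log2 fold change 0.89, SE 0.30, adjusted p = 0.0432), and the call was lost without Control replicate 1 (0.83) or any 1 ND-75KD library (0.83 to 0.91). Usp14, the deubiquitinase that binds Rpn1, was at 267, 256, 291 and 266 CPM in ND-75KD libraries, against 153, 236, 207 and 86.5 CPM in Control libraries. Its groups were apart too, and its adjusted p was 0.0598 (log2 fold change 0.67); it passed the threshold without Control replicate 2 (0.86) or 4 (0.44). Control replicate 4 was at or below 0.6 of the median of the other Control libraries for both, for the core assembly factor Pomp (log2 fold change 0.34) and for the small lid subunit Sem1 (0.21; called without Control replicate 2, at 0.69). It was above 0.6 for the rest. The 11S activator REG, a cap other than the 19S particle, was at 53.3, 50.2, 47.7 and 52 CPM in ND-75KD libraries, against 60.7, 83.6, 64.3 and 53.7 CPM in Control libraries. This placed ND-75KD below Control in every library, just short of the threshold (log2 fold change −0.37, SE 0.13, adjusted p = 0.0503), which it passed without Control replicate 4 (−0.45). PI31 (−0.33), which binds the core, and its partner ntc were not called.

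Of 11 genes for ubiquitin supply and delivery, 3 were higher, against 14.3% of tested genes, and 2 lower, a part close to the 18.9% of tested genes. The polyubiquitin gene Ubi-p63E rose to 520.0, 545, 603 and 497 CPM in ND-75KD libraries, against 404, 357, 337 and 295 CPM in Control libraries (log2 fold change 0.64, SE 0.12, adjusted p = 0.00344). The ubiquitin-activating enzyme Uba1 (0.38, adjusted p = 0.0256) and the shuttle protein Rad23 (0.47, adjusted p = 0.0278) also rose, and both are named here after their values were seen. The genes for ubiquitin fused to a ribosomal protein fell, as RpL40 (−0.83, adjusted p = 0.00177) and RpS27A (−0.95, adjusted p = 0.00142) show. Ubi-p5E, a more abundant polyubiquitin gene of the list, was not called (0.74, adjusted p = 0.0786 by edgeR) and is also named after its values were seen. Its groups overlapped, with ND-75KD libraries at 1442 to 2071 CPM and Control replicate 2 at 1791 CPM. Uba1 lost its call without any 1 ND-75KD library (0.36 to 0.40) and with the length trend removed (0.23), and Rad23 without ND-75KD replicate 2 (0.50), 3 (0.40) or 4 (0.49). Of 5 genes of the cnc pathway, cnc rose (0.46, adjusted p = 0.00778) at 275, 260.1, 274 and 227 CPM in ND-75KD libraries, against 205, 182, 196 and 172 CPM in Control libraries. Its small Maf partner maf-S fell (−0.41, adjusted p = 0.0176), at 41.9, 39.9, 43.3 and 45.4 CPM in ND-75KD libraries, against 58.8, 66.8, 49.8 and 50.8 CPM in Control libraries. Neither was called with the length trend removed (0.20 and −0.18), and maf-S was not called without ND-75KD replicate 2 (−0.38). The cnc inhibitor Keap1 (0.18), the N-glycanase Pngl (−0.16) and rngo, the Ddi1 homolog (−0.20), were not called. The Control order of the proteasome genes was seen in cnc only in part. Its level was lowest in Control replicate 4, at 0.881 of the median of the other Control libraries, but highest in Control replicate 1.

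The COP9 signalosome, a complex built like the lid from PCI and MPN subunits, served as a comparison. Of its 9 listed genes 8 were in the table, with a median log2 fold change of −0.03, and 1 was higher, near the 14.3% of tested genes. This was CSN3 (0.41, adjusted p = 0.0165; lost without ND-75KD replicate 2, at 0.38). None of the 8 had Control replicate 4 at or below 0.6 of the median of the other Control libraries, and the median ratio was 0.831.

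Marker genes of cell types also differed between the libraries. In whole heads, fewer cells of a type and less RNA per cell cannot be told apart. Against 14.3% of tested genes called higher and 18.9% called lower, 8 of 12 neuron markers were higher and 0 lower in ND-75KD heads, with summed levels of 5127 to 5467 CPM in ND-75KD and 3610 to 4798 CPM in Control libraries. Control replicate 4 had the highest neuron sum of the Control libraries and the lowest sum of proteasome genes. The neuron sums were 4398, 3610, 3781 and 4798 CPM in Control replicates 1 to 4, the reverse of the order of the proteasome sums. In ND-75KD replicates 1 to 4 they were 5127, 5467, 5409 and 5243 CPM, which is not the reverse of that order. Of 6 fat body markers 1 was higher and 4 were lower, with sums of 4340 to 9870 CPM in ND-75KD and 26283 to 39751 CPM in Control libraries. The lower ones were apolpp and the yolk protein genes Yp1, Yp2 and Yp3, the higher one was Fbp1, and Lsp2 was not called. Yolk protein genes made up much of these sums. Yp3 alone had a mean of 1743 CPM in ND-75KD and 13638 CPM in Control libraries. Of 8 glia markers 3 were lower and 0 higher (2426 to 2798 CPM in ND-75KD and 2804 to 3645 CPM in Control libraries), and of 7 muscle markers 1 was higher, at the share of all tested genes, and 0 lower (9703 to 10778 CPM in ND-75KD and 8659 to 13417 CPM in Control libraries). No marker of these lists was at 0 in all libraries. The part of cell composition in the levels of the proteasome genes was not tested.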

How the data were processed

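RNA-seq was made from heads of 4 ND-75KD and 4 Control pools. Reads were trimmed with fastp and mapped with HISAT2 to the fly genome of an Ensembl release that the study names, and featureCounts gave the counts per gene that the authors deposited. The versions of these tools and the strand setting are not given in the sources used here. For the deposited FPKM values the authors divided by gene length and by a library total. That total differs from the summed counts and lies near the TMM-scaled total. The authors also used DESeq2, and the deposited table holds their fold changes, p values and scaled counts, which were not used.

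Counts were tested in R 4.3.3 with edgeR 4.0.16. The filterByExpr filter was used (minimum count 10, minimum total 15), then TMM scaling and the quasi-likelihood test, with Benjamini-Hochberg adjustment over 9986 genes, and the SE is the log2 fold change over the square root of F. The biological coefficient of variation was 0.171. The proteasome genes, the gene lists and the tests were chosen with earlier results of these data known, so counts and medians over a list are descriptions. Every proteasome gene was named in the text, with the called genes of smallest adjusted p of each other pathway list. All genes of short pathway lists were named too, apart from some COP9 genes. Uba1, Rad23 and Ubi-p5E were named after their values were seen. Cell type markers were counted and summed, and only those of the fat body were named. Alternatives were DESeq2 1.42.0, other scalings and filters, limma 3.58.1 voom, removal of the trend on gene length (loess, span 0.5), a replicate block, a glmTreat threshold (fold 1.2) and leaving out single libraries. The scripts were tested on simulated counts with the same spread in both groups, unlike the main members here. That test does not cover calls of genes whose spread differs between the groups.

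All 42 proteasome genes have the same position in the BDGP6.54 annotation. Of their exons, 14 genes share bases with a gene on the opposite strand, and 0 with one on the same strand. For 7 of the 14 this was over 5% of their bases. These were Rpn9 (15.7%), Rpt6 (12.96%), Prosbeta2 (7.93%), Rpt2 (7.14%), Prosbeta5 (7.11%), Rpt4 (6.35%) and Rpn7 (6.32%). Without a stated strand setting, reads of such pairs cannot be told apart. Prosbeta4R1, Prosbeta4R2, Prosbeta5R2, Rpn12R and Rpn13R, which the annotation names, were not analysed here.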

Additional observations from a re-analysis of the deposited data

Results flagged for a closer look

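Levels of each proteasome gene were examined for a single library far from the other 3 of its group, in 84 groups of 4 libraries, of which 6 were marked. Chance marks about 1 in 20 such groups. In 4 of them ND-75KD replicate 3 was the highest, with 233.5 CPM of Prosalpha6 (182.4 to 190.1 CPM in the others), 191 CPM of Prosbeta4 (159.6 to 163 CPM), 319 CPM of Rpn13 (288 to 293 CPM) and 229 CPM of Rpn8 (213 to 215 CPM). The other 2 were low genes that were not tested. Prosbeta2R1 was at 0.849 CPM in Control replicate 4 (0.327 to 0.409 CPM in the others), and Prosalpha3T at 0.0369 CPM, from 1 read, in ND-75KD replicate 4 and 0 in the others.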

How the results depend on the processing

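The number of higher proteasome genes, 6 in the test as reported, was 11 with DESeq2, 20 with the length trend removed and 0 against a fold of 1.2. The number of lower genes, 1 as reported, was 0 with the length trend removed, against a fold of 1.2, with the replicate number as a block and with Control replicates 1 and 3 as the only controls. Leaving out each library in turn gave 0 to 10 higher and 0 to 1 lower genes. The medians by subcomplex, the sums, their ratio and ND-75 kept their direction in every setting run, but not their size. Without Control replicate 4 the core median was 0.04, close to no difference. Replicate numbers did not pair the libraries, since the correlation of deviations between equally numbered libraries was −0.14, −0.06, −0.03 and 0.04. With the number as a block, 9 genes were higher, the 6 among them, and Rpt4R (−0.56), Uba1 (0.39) and maf-S (−0.40) were not called.

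Genes near 0 changed sign. Prosalpha3 (−0.01 as reported) was 0.0025 with DESeq2, 0.0035 with its size factors, 0.018 with upper quartile scaling, 0.034 with at least 10 reads per library, 0.0058 with limma voom, 0.26 without the length trend, 0.17 with the replicate block and 0.083 with Control replicates 1 and 3 alone. Prosbeta5 (−0.16) was 0.10 without the length trend, 0.058 with the replicate block and 0.069 with those controls, which gave −0.011 for Rpt3R (0.12). Leaving out each library gave −0.26 to 0.36 for Prosalpha3, −0.40 to 0.32 for Prosbeta5, −0.11 to 0.36 for Prosalpha5, −0.19 to 0.36 for Prosalpha7, −0.019 to 0.22 for Rpt3R, −0.021 to 0.56 for Rpn12, −0.0090 to 0.55 for Rpn9 and −0.055 to 0.69 for Sem1. The cause was not tested. Depth limits the 7 restricted core genes.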
